A study of Mus musculus with 6 samples.

Results

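Metallothioneins and the genes that move zinc in and out of cells were examined in the livers of ethanol-fed mice with and without Cd44. The set holds 7 genes: the metallothioneins Mt1 and Mt2, the importers Slc39a4 and Slc39a14, the exporters Slc30a1 and Slc30a10, and the transcription factor gene Mtf1. They were chosen by name through the GRCm38 gene annotation, out of 54532 Ensembl gene rows, and all 7 were found and passed the low-count filter. Liver RNA came from 6 mice, 3 wild-type and 3 Cd44 knockout of the strain B6.Cg-Cd44tm1Hbg/J, whose targeted allele is carried in every tissue. All 6 were fed a 5% ethanol Lieber-DeCarli diet for 10 days, were gavaged with ethanol at 5 g/kg on day 11 and were killed 9 hours later. The sources used here do not give age, sex or whether the wild-type mice were littermates, and no ethanol-free mouse was analysed, so the values compare genotypes under ethanol only.

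Metallothioneins are small cytosolic proteins rich in cysteine that bind zinc, copper and cadmium. In the liver they hold a zinc store and are induced by metals, glucocorticoids and inflammatory cytokines. Zinc enters the cytosol through transporters of the SLC39 (ZIP) family and leaves it through those of the SLC30 (ZnT) family. MTF1, the metal-responsive transcription factor, senses zinc and binds metal response elements in the promoters of Mt1, Mt2 and Slc30a1.

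The coding sequences of Mt1 and Mt2 are shown because they carry the metal-binding residues and because the 2 genes gave very different counts. Both lie on the plus strand of chromosome 8 (GRCm38), with Mt1 (ENSMUSG00000031765) at 94179082 to 94180327 and Mt2 (ENSMUSG00000031762) at 94172664 to 94173568. The coding sequences are those of GENCODE, 5′ to 3′ with the stop codon, and capitals mark the cysteine codons TGC and TGT.
Mt1 coding: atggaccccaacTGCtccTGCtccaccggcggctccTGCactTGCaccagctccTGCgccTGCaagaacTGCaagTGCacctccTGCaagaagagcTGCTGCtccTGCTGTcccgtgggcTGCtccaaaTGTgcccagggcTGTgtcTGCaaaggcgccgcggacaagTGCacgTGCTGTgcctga
Mt2 coding: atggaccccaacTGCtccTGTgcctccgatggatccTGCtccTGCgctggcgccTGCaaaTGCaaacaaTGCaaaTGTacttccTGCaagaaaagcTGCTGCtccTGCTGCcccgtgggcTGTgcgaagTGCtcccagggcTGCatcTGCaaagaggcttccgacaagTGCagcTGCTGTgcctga
Each has 61 codons before the stop, of which 20 (32.8%) encode cysteine, and the 20 stand at the same places in both. Of 186 bases, 148 (79.6%) are identical. The longest exact run shared by the full transcripts is 20 bases.

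The promoters of 5 of the 7 genes were in the RefSeq table (GRCm38.p6), and those of Mt1, Mt2, Slc30a1 and Slc30a10 are shown because they hold the core of the metal response element. Each window runs from 250 bases before the RefSeq start site to 50 bases of sequence from it. Capitals mark TGCACNC or TGCGCNC on either strand, the letters searched for.
Mt1 chr8:94178839-94179138, plus strand: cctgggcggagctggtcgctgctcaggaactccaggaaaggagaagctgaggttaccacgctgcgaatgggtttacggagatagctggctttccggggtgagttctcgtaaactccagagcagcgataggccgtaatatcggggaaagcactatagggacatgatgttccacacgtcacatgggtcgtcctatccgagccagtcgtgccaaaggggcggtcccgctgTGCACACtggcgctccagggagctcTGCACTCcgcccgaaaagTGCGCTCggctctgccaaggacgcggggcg
Mt2 chr8:94172368-94172667, plus strand: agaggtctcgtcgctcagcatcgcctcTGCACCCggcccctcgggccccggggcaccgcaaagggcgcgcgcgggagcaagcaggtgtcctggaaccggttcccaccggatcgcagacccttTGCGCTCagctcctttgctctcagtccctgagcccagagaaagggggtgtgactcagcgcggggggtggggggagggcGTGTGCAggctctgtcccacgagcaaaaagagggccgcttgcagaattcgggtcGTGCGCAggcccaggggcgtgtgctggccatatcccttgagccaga
Slc30a1 chr1:191906531-191906830, plus strand: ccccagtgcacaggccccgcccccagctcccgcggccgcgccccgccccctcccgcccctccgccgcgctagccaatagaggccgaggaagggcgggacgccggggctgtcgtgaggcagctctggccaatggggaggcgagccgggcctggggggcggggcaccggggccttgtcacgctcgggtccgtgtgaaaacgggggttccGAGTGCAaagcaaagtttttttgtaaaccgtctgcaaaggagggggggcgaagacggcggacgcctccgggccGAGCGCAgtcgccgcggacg
Slc30a10 chr1:185454598-185454897, plus strand: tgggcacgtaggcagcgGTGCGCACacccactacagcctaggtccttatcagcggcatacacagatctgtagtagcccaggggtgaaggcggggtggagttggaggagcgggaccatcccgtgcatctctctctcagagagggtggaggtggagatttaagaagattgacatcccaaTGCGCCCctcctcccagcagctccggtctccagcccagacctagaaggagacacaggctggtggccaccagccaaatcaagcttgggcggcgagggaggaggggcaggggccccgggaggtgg
The Mt1 window had 3 matches, Mt2 4, Slc30a1 2 and Slc30a10 3, of which 2 overlap each other on opposite strands. Mtf1 had 0 in its window. Of 32851 RefSeq promoter windows of the same length, 25.7% held at least 1 match, 7.11% at least 2 and 1.97% at least 3. The letters TTCNNNGAA of a STAT site (8.3% of windows) were in none of the 5 windows, TGACNNNGC of the antioxidant response element (12.4%) was in those of Mt2 and Slc30a1, and AGAACA of the glucocorticoid site (19.0%) in that of Mtf1, on either strand. A match describes these letters and does not show a bound site.

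Cd44 counts matched the genotype labels, at 590, 175 and 568 in wild-type mice 1, 2 and 3 and 1, 0 and 0 in knockout mice 1, 2 and 3. Counts in annotated genes ran from 15429784 to 19293777 per library. Wild-type 3 stood apart from the other libraries. The chi-square of its counts against another library, divided by the degrees of freedom, was 82.1 to 114, where the pairs without it gave 23.3 to 49.0. Its level of Lcn2, an acute-phase and neutrophil gene, was 1526 CPM (counts per 1000000, scaled by TMM) against 61.6 to 189 elsewhere. The hepatocyte markers, 10 of 10 tested, had summed levels of 88441 to 106183 CPM (wild-type) and 94765 to 119322 CPM (knockout).

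No gene of the set passed an adjusted p of 0.05 in edgeR's quasi-likelihood test, and the clearest separation was in the importer Slc39a4, which was lower in all 3 knockout mice than in any wild-type mouse. Of the 7, 0 passed, against 0.0141% of the 14145 genes tested. The unadjusted p was under 0.05 for 1 of the 7, Slc39a4; without knockout 1 it was 0.078 and without knockout 3 it was 0.070. Other genes came under 0.05 unadjusted in some alternatives. These were Mt1 with DESeq2 (0.030), with no low-count filter (0.031), without wild-type 3 (0.045) and without knockout 2 (0.020), Slc30a1 without knockout 1 (0.023) and Slc30a10 without wild-type 3 (0.00067). Of all tested genes 12.8% lay at that level, 5.22% higher and 7.59% lower in the knockout. DESeq2 called 0 of the 7 (2.33% of all tested genes, 0.855% higher and 1.48% lower) and limma-voom 0; DESeq2 gave no adjusted p for Mt2. Genotypes did not overlap for 1 of the 7, against 18.2% of all tested genes (8.81% higher and 9.42% lower). The mean was higher in the knockout for 4 of the 7 and for 48.9% of all tested genes. The median log2 fold change, knockout relative to wild-type, was 0.08 over the 7 genes and −0.01 over all tested genes. The 0.08 is the value of Mt2, whose few counts are described below; without Mt2, 3 of 6 genes had the higher mean and the median was 0.12. Fold changes below are on the log2 scale with their standard error, and levels are CPM.

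**Figure D1:**
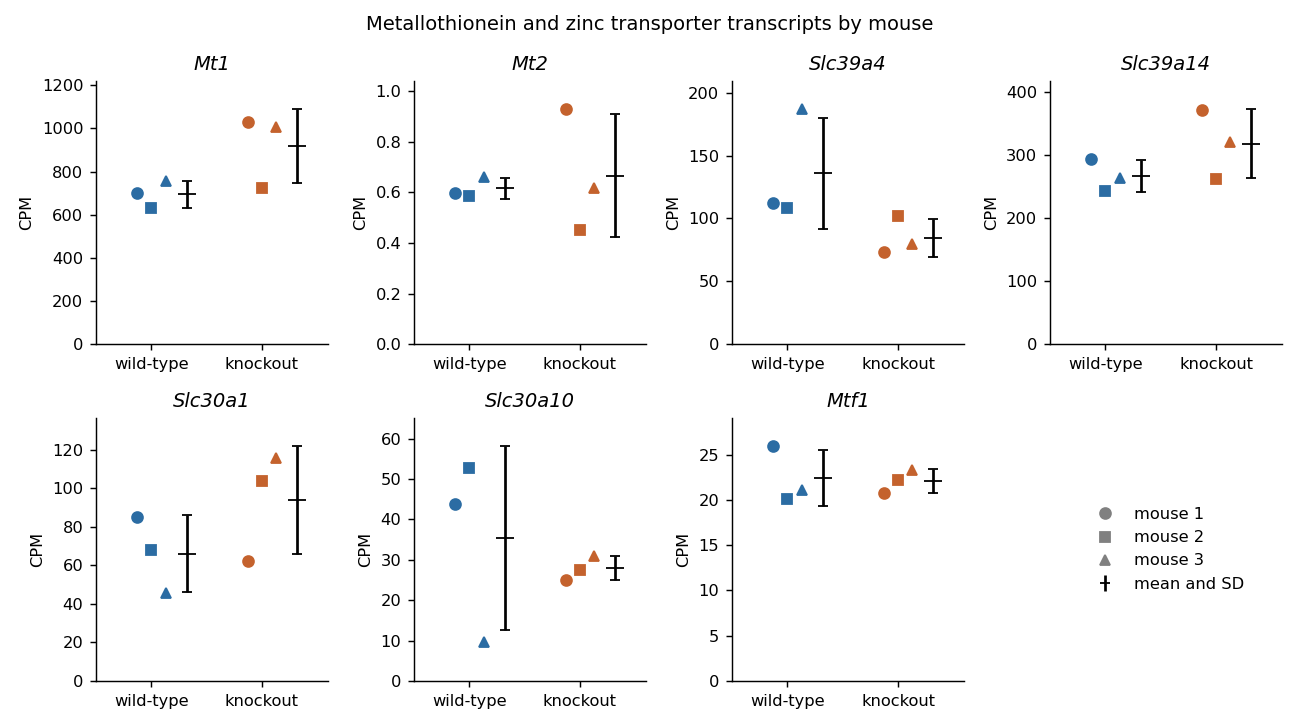
Level of each of the 7 genes in every mouse, in CPM on an axis from 0 that differs between panels. Circles, squares and triangles are mice 1, 2 and 3 of each genotype, and the black mark with its bar is the mean and SD (n = 3). Slc39a4 is the only panel in which the genotypes do not overlap, and Slc30a10 has its lowest value, 9.67 CPM, in wild-type 3.

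Mt1 had the higher mean in the knockout livers, with 1 knockout mouse inside the wild-type range. Its level was 701, 629 and 756 CPM in wild-type mice 1, 2 and 3 and 1029, 722 and 1005 CPM in knockout mice 1, 2 and 3. Knockout 1 and 3 stood above every wild-type mouse, while knockout 2 lay between wild-type 1 and wild-type 3. The means were 695 ± 63.5 CPM and 919 ± 171 CPM (SD, n = 3 each), a log2 fold change of 0.40 ± 0.19 (edgeR adjusted p = 0.420), which did not pass. Mt1 reads made up 0.0600% to 0.0830% of the counts in wild-type and 0.0748% to 0.101% in knockout livers. The log2 level of Mt1 and Mt2 summed, which is almost wholly Mt1, differed by 0.39 (exact two-sided permutation test p = 0.20, adjusted over 2 such tests 0.30; the smallest p that 3 against 3 mice allow is 0.1).

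Mt2 had almost no counts in any library, and these cannot be read as its RNA level. The counts were 11, 9 and 13 in wild-type mice 1, 2 and 3 and 14, 9 and 9 in knockout mice 1, 2 and 3, where Mt1 had 9654 to 15521. A count of 9 has an exact 95% Poisson interval of 4.12 to 17.1, so every library lay within counting error of the others. The single exon of Gm45774 (ENSMUSG00000110588; chromosome 8, 94170748 to 94173412, minus strand), an antisense gene model, covers 432 of the 588 exonic bases of Mt2 (73.5%) and leaves 156 bases at its 3′ end. The library protocol in the labels describes no step that marks strand and selected fragments of 370 to 420 bp, and Gm45774 itself had 3 to 12 counts per library. How reads that overlap both models were counted is not given in the sources used here, and the part of this overlap in the low count was not tested. The log2 fold change of Mt2 was 0.08 ± 0.44 (edgeR adjusted p = 0.967). The log2 ratio of Mt2 to Mt1 per kb ran from −9.11 to −8.98 in wild-type and from −9.59 to −9.03 in knockout livers, and the means differed by −0.34 (exact two-sided permutation test p = 0.30, adjusted over 2 tests 0.30). This ratio rests on the same few Mt2 counts, and without knockout 1 it was −0.52 (exact permutation p = 0.10, the smallest that 3 against 2 mice allow).

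**Figure D2:**
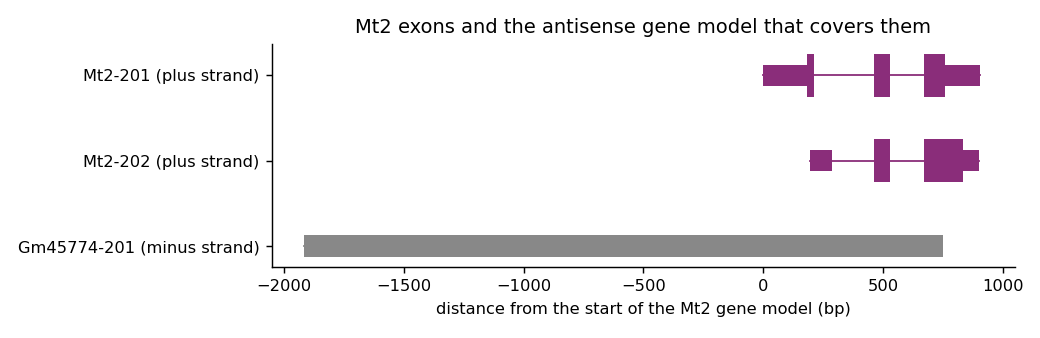
Annotated Mt2 transcripts (purple) and the antisense model Gm45774 (grey), drawn to scale against the distance in bp from the start of the Mt2 gene model; thick boxes are coding, thinner boxes are other exonic sequence, and lines are introns. The grey exon ends 748 bp after the Mt2 start and covers all Mt2 exonic sequence but the last 156 bases.

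The importers differed in sign. Slc39a4, or ZIP4, is best known as the zinc importer of the small intestine (ENSMUSG00000063354; chromosome 15, 76612383 to 76617384, minus strand). Its level was 113, 108 and 187 CPM in wild-type mice 1, 2 and 3 and 73.0, 102 and 79.5 CPM in knockout mice 1, 2 and 3. The genotypes did not overlap, but the gap between knockout 2 and wild-type 2 was small and wild-type 3 was far above the rest. The means were 136 ± 44.2 and 84.8 ± 15.1 CPM (SD, n = 3 each), a log2 fold change of −0.68 ± 0.24 (edgeR adjusted p = 0.300). Without wild-type 3 it was −0.38 ± 0.16 (adjusted p = 0.410). Beside it, monocyte and macrophage markers (9 of 10 tested) had summed levels of 187 to 324 CPM (wild-type) and 87.9 to 126 CPM (knockout). S100a4 was at 0 in every library. Kupffer cell markers (10 of 10 tested) had 1022, 358 and 886 CPM in wild-type mice 1, 2 and 3 and 325 to 351 CPM in knockout mice. Cholangiocyte markers (4 of 5 tested) also had lower sums, at 12.5 to 16.5 CPM (wild-type) and 8.40 to 10.9 CPM (knockout). Sums of stellate cell markers overlapped, at 415 to 611 CPM and 369 to 461 CPM. So did those of neutrophil markers (4 of 8 tested), at 6.52 to 10.4 CPM and 3.22 to 7.03 CPM. Each sum covers all genes of its list, tested or not. At an unadjusted edgeR p under 0.05, 9 of 10 Kupffer cell and 6 of 9 monocyte and macrophage markers were lower in the knockout. For stellate cell markers this held for 3 of 7, for neutrophil markers 2 of 4 and for cholangiocyte markers 0 of 4. Of all tested genes, 7.59% were lower at that level. The part of these cell types in the Slc39a4 result was not tested. In whole liver, fewer cells of a type and less RNA per cell cannot be told apart.

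Slc39a14, or ZIP14, carries zinc, iron and manganese into hepatocytes and is induced by interleukin-6 (ENSMUSG00000022094; chromosome 14, 70303469 to 70351425, minus strand). Its level was 293, 243 and 264 CPM in wild-type mice 1, 2 and 3 and 371, 262 and 321 CPM in knockout mice 1, 2 and 3. As for Mt1, knockout 1 and 3 were the highest libraries and knockout 2 lay within the wild-type range. The log2 fold change was 0.25 ± 0.16 (edgeR adjusted p = 0.580; 0.14 without knockout 1). Of the 21 pairs among the 7 genes, Mt1 and Slc39a14 were the most alike over the 6 libraries. Their log2 CPM values, each centred on its own mean, had a root mean square difference of 0.12, against 0.18 to 1.08 for the other pairs. This difference is also small for any 2 genes that vary little, so it does not measure a shared pattern alone.

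The exporters did not pass either, and both varied widely between mice. Slc30a1, or ZnT1, exports zinc across the plasma membrane (ENSMUSG00000037434; chromosome 1, 191906767 to 191913247, plus strand). Its level was 85.0, 68.2 and 45.4 CPM in wild-type mice 1, 2 and 3 and 62.3, 104 and 116 CPM in knockout mice 1, 2 and 3. Knockout 2 and 3 stood above all wild-type mice, while knockout 1 lay below wild-type 1 and 2. The log2 fold change was 0.51 ± 0.29 (edgeR adjusted p = 0.525), and it was 0.29 without wild-type 3 and 0.33 without knockout 3. The antisense gene 1700034H15Rik covers 8.92% of its exonic bases, and its own counts came to 90 over the 6 libraries, against 8209 for Slc30a1. Of the known MTF1 targets Mt1 and Slc30a1, knockout 3 was above every wild-type mouse in both, while knockout 1 had the highest Mt1 and the second lowest Slc30a1.

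Slc30a10, or ZnT10, exports manganese from hepatocytes into bile and belongs to the zinc exporter family by sequence (ENSMUSG00000026614; chromosome 1, 185454848 to 185468762, plus strand). Its level was 43.8, 52.8 and 9.67 CPM in wild-type mice 1, 2 and 3 and 25.1, 27.6 and 31.0 CPM in knockout mice 1, 2 and 3. The wild-type mice differed by up to 5.46-fold and the knockout mice by up to 1.24-fold, and wild-type 3 lay far below every other library. The log2 fold change was −0.34 ± 0.54 (edgeR adjusted p = 0.859). Without wild-type 3 the value was −0.79 ± 0.15 (edgeR adjusted p = 0.233), and without wild-type 2 its sign turned (0.07, adjusted p = 0.972).

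Mtf1 itself had the smallest spread of the 7 genes over the 6 libraries together, 1.29-fold from lowest to highest, but not within the wild-type mice, where Mt1, Mt2 and Slc39a14 spread less (ENSMUSG00000028890; chromosome 4, 124802104 to 124849800, plus strand). Its level was 26.0, 20.1 and 21.1 CPM in wild-type mice 1, 2 and 3 and 20.8, 22.2 and 23.3 CPM in knockout mice 1, 2 and 3. The 3 knockout values lay within the wild-type range, and the log2 fold change was −0.02 ± 0.14 (edgeR adjusted p = 0.971). The exons of 1110065P20Rik on the opposite strand cover 721 of its 8907 exonic bases, and 1437 counts went to that gene over the 6 libraries against 2299 to Mtf1; without strand, reads of the shared stretch cannot be told apart.

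Levels per kb of merged exons (RPKM) set Mt1 far above the transporters. The mean over the 6 libraries was 648 ± 135 RPKM (SD) for Mt1, 35.5 ± 13.1 for Slc39a4, 27.7 ± 4.49 for Slc39a14, 15.3 ± 5.07 for Slc30a1, 5.42 ± 2.59 for Slc30a10 and 2.5 ± 0.24 for Mtf1. Mt1 was above Slc39a4, and Slc39a14 above Slc30a1, with no overlap between libraries. Slc39a4 and Slc39a14 were not separated, since Slc39a4 was higher in 4 of 6 libraries, and their order turned when the length of a single annotated transcript was used (53.5 ± 19.7 and 139 ± 22.6 RPKM). With that length Mt1 was at 1470 ± 306 RPKM, still the highest. Slc30a1 was above Slc30a10 in 6 of 6 libraries and Slc30a10 above Mtf1 in 5 of 6, with ranges that overlap.

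**Figure D3:**
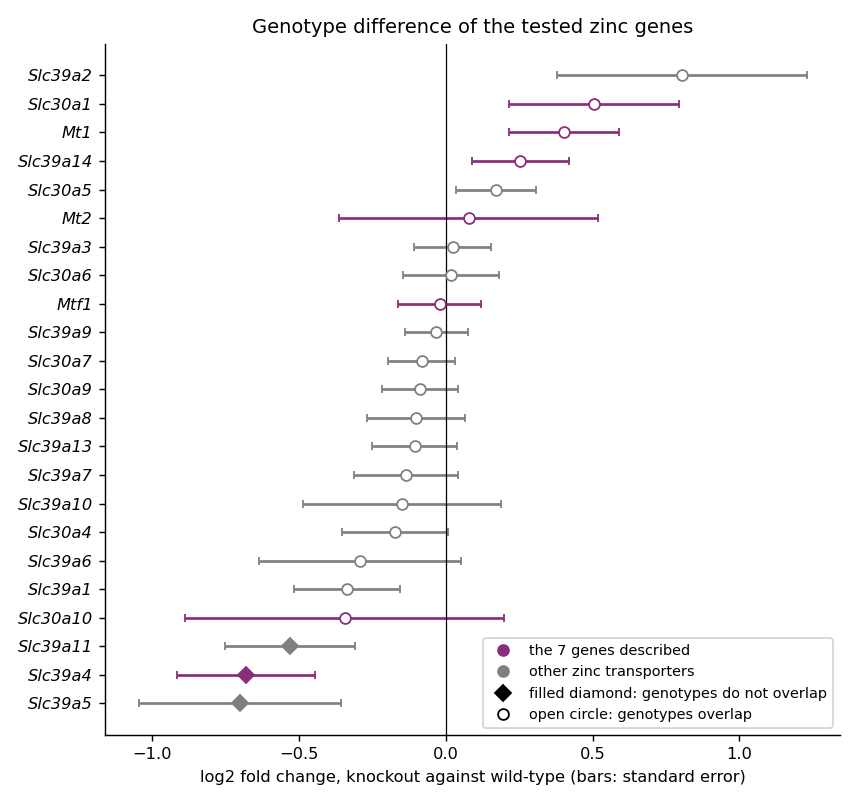
Log2 fold change, knockout relative to wild-type, of the 23 tested metallothionein and zinc transporter genes, with the standard error as bars. Purple marks the 7 genes described and grey the others. Filled diamonds mark genes whose genotypes do not overlap, which are Slc39a4, Slc39a11 and Slc39a5, all lower in the knockout. Genotypes did not overlap for 18.2% of all tested genes.

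None of the other zinc genes tested passed. Of 22 further family members, 16 passed the low-count filter and 0 of these passed edgeR's adjusted p of 0.05. An unadjusted p under 0.05 was found for 1 of them, and for 12.8% of all tested genes. Among the 11 other importers tested, 9 had a lower mean in the knockout, where 51.1% of all tested genes did, and the median log2 fold change was −0.14. That median is the value of Slc39a7, which is also among the 9. Of its exonic bases, 80.7% are shared with Gm20427 on the same strand, and the effect on its counts was not tested. Slc39a11, a ZIP importer, gave 36.0 ± 11.8 CPM in wild-type livers (SD, n = 3) and was lower in each knockout liver than in any wild-type liver (log2 fold change −0.53 ± 0.22, edgeR adjusted p = 0.374), with wild-type 3 the highest library at 49.7 CPM. Slc39a5 gave −0.70 ± 0.35 at about 1 CPM, and Slc39a1, an abundant importer, −0.34 ± 0.18 with overlapping genotypes. Slc39a2 gave 0.80 ± 0.43 on 17 to 37 counts per library. The 5 other exporters tested had a median of −0.08, with Slc30a5 at 0.17 ± 0.14, Slc30a4 at −0.17 ± 0.18, Slc30a7 at −0.08 ± 0.11 and Slc30a9 at −0.09 ± 0.13. Mt3, the brain metallothionein, had 0 to 6 counts per library, and Mt4 had 0 in all 6, which allows up to 0.150 to 0.205 CPM (3 counts per library).

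Likeness over the 6 libraries was scored by the root mean square difference of centred log2 CPM, which is also small between genes that vary little. The genes most like each member were sought by it among 11179 protein-coding genes. For Mt1 they were Afp, which encodes alpha-fetoprotein (0.017), the complement gene C8b (0.065) and the checkpoint clamp gene Rad1 (0.077). Afp was at only 5.28 to 8.75 CPM, and the score takes no account of counting error. For Slc39a14 they were Plekhg3 (0.05), Ube2f (0.06) and Tirap, an adaptor of toll-like receptors (0.07). Slc39a4 was most like Rab34 (0.09), Mfge8, which bridges dying cells to phagocytes (0.10), and Rhno1 (0.11), and all 3 were highest in wild-type 3. Slc30a1 was most like Ern1, which encodes the endoplasmic reticulum stress sensor IRE1 (0.13), Gnl3 (0.14) and Tob2 (0.14). Slc30a10 was most like Acaca, which encodes acetyl-CoA carboxylase of fatty acid synthesis (0.11), and Gpi1, which encodes a glycolytic isomerase (0.175). Wild-type 3 had an Acaca level of 120 CPM, where the 5 others lay between 302 and 653 CPM. Mtf1 was most like Dennd1a (0.03), Fbrs (0.03) and the cap-binding gene Eif4e (0.04), and Mt2, on its few counts, like Ddx55 (0.06), Zfp952 (0.08) and Thpo (0.09).

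**Figure D4:**
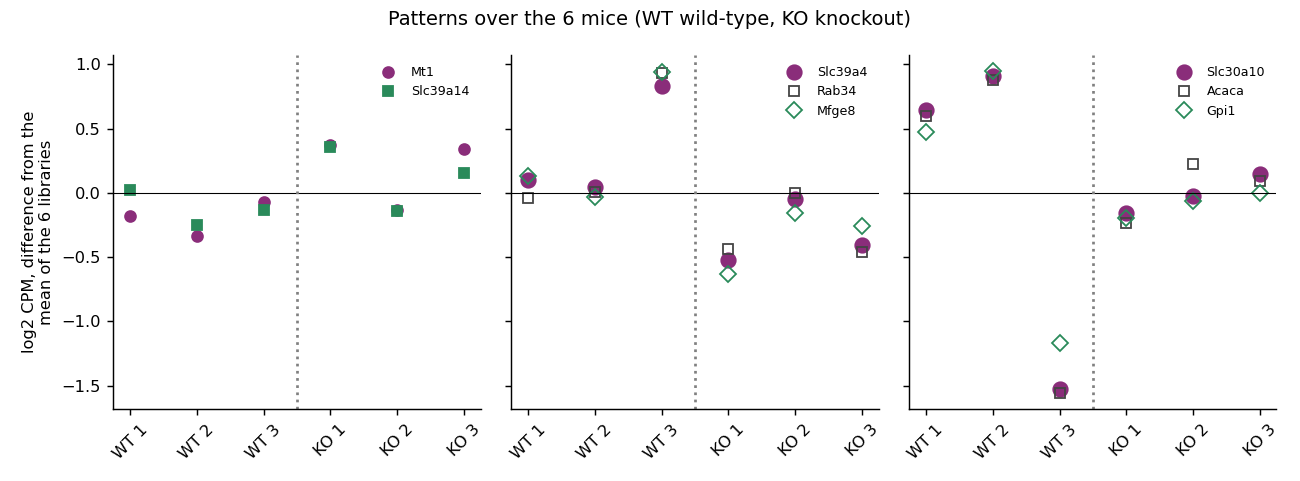
Log2 CPM of each library minus the mean of the 6 libraries, with wild-type (WT) mice left and knockout (KO) mice right of the dotted line. Left, Mt1 and Slc39a14; middle, Slc39a4 with the 2 genes most like it; right, Slc30a10 with the 2 most like it. Wild-type 3 is highest for Slc39a4 (0.83) and lowest for Slc30a10 (−1.52).

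Genes that share regulators or cargo with this set did not pass edgeR's adjusted p of 0.05 either. Of all tested genes, 5.22% were higher and 7.59% lower at an unadjusted p under 0.05. Of 30 acute-phase and STAT3-related genes, 0 passed (6 higher and 3 lower at an unadjusted p under 0.05), and the median was 0.08. The 4 with the smallest p were the interleukin-1 antagonist Il1rn (−1.02 ± 0.26), Saa3 (−1.13 ± 0.36), Orm2 (−0.70 ± 0.23) and the transcription factor Cebpb (0.43 ± 0.15). Of 15 glucocorticoid-responsive genes, 0 passed (0 higher and 3 lower unadjusted, median −0.32). Dusp1 was at −1.31 ± 0.44, Pck1 at −1.17 ± 0.40, Errfi1 at −0.83 ± 0.30 and Gadd45b at −0.61 ± 0.29. The low value of this list lay in knockout 1. Its median centred log2 level was −0.81 there, and 0.20 and 0.17 in knockout 2 and 3. In wild-type mice 1, 2 and 3 it was 0.11, −0.10 and 0.26. Of 15 tested NRF2-related genes, 0 passed (3 lower unadjusted; median −0.25), with Nqo1 at −0.57 ± 0.16, Gsta1 at −1.25 ± 0.42, Slc7a11 at −2.39 ± 0.92 and Srxn1 at −0.51 ± 0.29. Of 17 iron, copper and manganese genes, 0 passed (2 lower unadjusted; median −0.09). These were transferrin, Trf (963 ± 101 CPM in wild-type, 714 ± 9.18 CPM in knockout, −0.43 ± 0.15), and the iron exporter Slc40a1 (−0.38 ± 0.16); the iron importer Slc11a2 gave −0.39 ± 0.18 and ceruloplasmin, Cp, −0.46 ± 0.25. DESeq2 called 1 gene of the acute-phase list, Il1rn, and 1 of the glucocorticoid list, Dusp1, both lower, as were 1.48% of all tested genes.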

How the data were processed

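Poly(A) RNA of whole liver was sequenced, 1 library per mouse, with random hexamer priming; the labels' protocols describe no step that marks strand. Raw read counts per gene were deposited by the authors. The submitters' processing notes name featureCounts 1.5.0-p3, StringTie 1.3.3b, HISAT2 2.0.5 and the build GRCm38.p6. Of 54682 rows, 150 had no gene name (0.273% to 0.509% of a library's counts) and were left out; 54495 matched GENCODE M21. No 2 libraries agreed within sampling noise. Each library is a separate mouse in the labels and counted as 1 replicate.

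Counts were fitted over 14145 genes with edgeR 4.0.16 in R 4.3.3 (filterByExpr, TMM, robust quasi-likelihood F test, Benjamini-Hochberg adjustment, threshold 0.05), after a check on simulated counts. Standard errors were derived from the log2 fold change and its F statistic. Likeness used log2 CPM with a prior count of 2. DESeq2 1.42.0, limma 3.58.1 (voom), RLE scaling, 2 other low-count filters, mouse number as a block and leaving out each library were alternatives; the transcript length was added after seeing the data. The genes, lists and the naming rule (all members, up to 4 genes per context list by smallest p, and the 3 most alike genes of each member with mean log2 CPM of at least 1) were chosen with earlier results of these data known; 1 such gene is not reported here. Intervals and the 3-count floor cover counting error only.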

Additional observations from a re-analysis of the deposited data

How the results depend on the processing

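None of the 7 genes passed an adjusted p of 0.05 under any alternative run, with adjusted p values from 0.146 to 0.997; Mt2 was not tested under the filter of at least 1 CPM in 3 libraries or without wild-type 3. Mt1, Slc39a4, Slc39a14 and Slc30a1 kept their direction under all 12 alternatives each. The sign turned for Mt2 without knockout 1 (−0.22), for Slc30a10 with limma-voom (0.0083) and without wild-type 2 (0.071), and for Mtf1 without wild-type 1 (0.10) and without knockout 1 (0.035); the cause was not tested. Leaving out 1 library gave Mt1 0.33 to 0.55, Slc39a4 −0.83 to −0.38, Slc39a14 0.14 to 0.38, Slc30a1 0.29 to 0.74, Slc30a10 −0.79 to 0.071, Mt2 −0.22 to 0.32 and Mtf1 −0.083 to 0.10. The count of all genes called was 2 in edgeR, 6 with no low-count filter, 330 with DESeq2, 0 with limma-voom (1685 at an unadjusted p under 0.05), and 0 to 151 when 1 library was left out, highest without wild-type 2 and 0 without knockout 2 (1445 unadjusted) or knockout 3 (979 unadjusted). With mouse number as a block it was 1. Deviations of same-numbered mice had correlations of −0.02, −0.02 and −0.01, which show no pairing by number. With 3 mice per genotype these values do not settle whether such mice were paired. No member's call changed under the block, under which Slc30a10 gave −0.08. The Mt2 to Mt1 ratio and the summed Mt1 and Mt2 level kept their sign under all their alternatives, the ratio at −0.52 to −0.24 and the sum at 0.30 to 0.55 with 1 library left out. Mt2, Mt3 and Mt4 had at most 14 counts per library, which limits the precision of their values; the source of the low Mt2 count was not tested.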

Other observations

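Socs3, a feedback inhibitor of interleukin-6 signalling chosen here after its values were seen, was at 9.18, 6.84 and 11.6 CPM in wild-type mice 1, 2 and 3 and at 18.0, 8.30 and 15.7 CPM in knockout mice 1, 2 and 3. Knockout 1 and 3 were thus its highest libraries, as for Mt1 and Slc39a14. How many of all tested genes have this order was not counted. The log2 fold change of Socs3, 0.60 ± 0.31, did not pass (edgeR adjusted p = 0.483). Stat3, chosen in the same way, was at 165, 96.7 and 133 CPM in wild-type and 216, 177 and 172 CPM in knockout mice. Its genotypes did not overlap, as for 8.81% of all tested genes in this direction, and its log2 fold change was 0.52 ± 0.20 (edgeR adjusted p = 0.348). Both genes belong to the 30 acute-phase and STAT3-related genes, of which 18 had a higher and 12 a lower mean in the knockout. Among the lower were Lcn2 (−2.42 ± 1.09), Saa2 (−0.68 ± 0.63) and Saa1 (−0.53 ± 0.48), and the median of the list was 0.08. Lcn2 was highest in wild-type 3 (1526 CPM), and Saa1 and Saa2 in wild-type 1 (134 and 92.9 CPM). The other wild-type mice did not exceed the highest knockout mouse for any of these genes. What the likeness to Mt1 and Slc39a14 rests on was not tested.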
